A study of Mus musculus with 2 samples.

Results

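The nuclear-encoded oxidative phosphorylation genes were taken from the deposited gene lists by symbol: all names starting with Nduf, Uqcr, Atp5, Cox4, Cox5, Cox6, Cox7 or Cox8, together with Sdha, Sdhb, Sdhc, Sdhd and Cyc1, that held at least 50 unique molecular identifiers (UMIs, each counting 1 captured RNA molecule) over both libraries. Of 31053 genes in the files, 94 bore such a name and 89 reached that minimum. Grouped by symbol, these 89 members comprised 36 subunits of complex I, 8 complex I assembly factors and 4 subunits of complex II. A further 9 were grouped with complex III, 15 with complex IV and 16 with complex V, and 1 was a supercomplex factor, Cox7a2l. The grouping rests on names, so a gene such as Atp5s is placed in complex V by its name alone. The 5 that fell short were Cox8c, Cox7b2 and a second Atp5o entry with 0 UMIs, Cox8b with 2 and Cox4i2 with 7, while just inside lay Cox6b2 with 50, Cox6a2 with 86 and Ndufa4l2 with 148.

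The samples were liver cells of C57BL/6 mice, profiled by 10x Genomics 3′ single-cell RNA sequencing, with 1 library from mice fed chow and 1 from mice fed a NASH diet rich in fructose, fat and cholesterol, each for 6.5 weeks. NASH stands for non-alcoholic steatohepatitis, a fatty liver disease with inflammation. Livers were dissociated with collagenase and passed over Percoll at 90% and 25%, each at 100 and 1000 g, to keep hepatocytes of several densities together with the other liver cells. The sources used here do not state the age or sex of the mice, nor how many entered each library. With 1 library per diet a difference between the libraries has no replicate check and cannot be told apart from a difference between the 2 preparations, so no p-value is given, and the intervals printed cover counting error only.

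Oxidative phosphorylation is carried out in the inner mitochondrial membrane. Complexes I and II pass electrons from NADH and succinate to ubiquinone, complex III hands them on to cytochrome c, complex IV delivers them to oxygen, and complex V uses the proton gradient so built to make ATP. Complexes I, III, IV and V are mosaics of subunits encoded in the nucleus and in mitochondrial DNA, whereas complex II is encoded in the nucleus alone. Hepatocytes are rich in mitochondria and draw on this pathway for gluconeogenesis, urea synthesis and fatty acid oxidation.

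The chow library held 7359 barcodes and 71635757 UMIs, and the NASH diet library 5881 barcodes and 39440182 UMIs. The 2 libraries shared 69 barcode sequences. Members took 1253359 and 823166 of the UMIs. Hepatocyte-like barcodes (at least 10000 UMIs, at most 30% mitochondrial UMIs, at least 5 of 8 hepatocyte markers and fewer than 3 markers of every other liver class) numbered 1545 in chow and 898 in the NASH diet, with median depths of 26020 and 21702 UMIs. Their median mitochondrial share differed, at 18.8% and 23.8%. The 8 hepatocyte markers made up 8.17% and 9.28% of nuclear-encoded UMIs there, against 1.35% and 0.756% in the endothelial-like gate. Another gate goes against its name: the barcodes with 3 or more cholangiocyte markers, 321 and 44 in number, had 9.88% and 10.7% hepatocyte marker UMIs and are not treated as bile duct cells. The hepatocyte-like gate includes 81 and 64 barcodes of up to 10% mitochondrial UMIs, which are called hepatocyte-like by rule only. Levels are UMIs per 1000000 nuclear-encoded UMIs (CPM), with mitochondrially encoded transcripts kept out of the denominator. Since the kit counts 1 end of each transcript, levels are not divided by length.

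The members are scattered over 19 chromosomes, 3 of them on X, and most encode small proteins: their median coding length was 438 bases, against 1380 bases for the genes tested between diets. Promoters, from 250 bases before to 50 bases after the start, were found for 72 of the 89 members in RefSeq's table (GRCm38.p6). Members were matched by Ensembl identifier or else by symbol, and the genes tested between diets by symbol alone. The core of the NRF1 motif occurred on either strand in 29.2% of those 72 members, against 7.0% of all 27025 genes in the table and 16.1% of the 8254 genes that were also tested between diets. The site of the oestrogen-related receptors, AAGGTCA, occurred in 11.1% of members and 4.29% of tested genes. For the ETS core CCGGAAG, bound by GABP among others, the shares were 25.0% and 22.0%, for the YY1 core ATGGCG 27.8% and 19.1%, and for CCAAT 44.4% and 43.7%. The lettering of 4 members to which the results return is shown, restricted to bases upstream of the RefSeq start that lie outside annotated exons, 5′ to 3′ on the gene's strand, with matches to these 5 motifs in capitals. Ndufaf4 (chr4:24897883-24898082, plus strand) has the NRF1 core, Sdhd (chr9:50603850-50603909, minus strand) the ETS core read from the other strand, Cox5a (chr9:57521032-57521231, plus strand) the YY1 core, and Atp5g3 (chr2:73911327-73911526, minus strand) CCAAT followed by the oestrogen-related receptor site read from the other strand. The full windows of Sdhd and Atp5g3 hold further matches outside the stretches shown, an NRF1 core in both and an oestrogen-related receptor site in Sdhd. No base was shared by 2 matches shown, and a match describes letters, not occupancy.
Ndufaf4: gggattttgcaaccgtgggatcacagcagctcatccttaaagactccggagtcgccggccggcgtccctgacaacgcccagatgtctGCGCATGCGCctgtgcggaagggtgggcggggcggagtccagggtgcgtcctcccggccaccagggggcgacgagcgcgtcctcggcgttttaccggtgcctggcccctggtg
Sdhd: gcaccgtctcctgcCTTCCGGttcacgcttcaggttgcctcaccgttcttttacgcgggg
Cox5a: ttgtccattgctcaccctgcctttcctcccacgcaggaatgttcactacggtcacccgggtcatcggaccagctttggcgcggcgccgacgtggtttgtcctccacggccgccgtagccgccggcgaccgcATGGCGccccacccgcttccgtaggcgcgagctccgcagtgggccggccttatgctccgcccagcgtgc
Atp5g3: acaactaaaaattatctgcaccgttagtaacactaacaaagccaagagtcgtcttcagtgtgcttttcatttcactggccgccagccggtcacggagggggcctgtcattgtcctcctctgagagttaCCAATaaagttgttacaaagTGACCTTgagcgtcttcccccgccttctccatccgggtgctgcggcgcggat

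The first comparison asked how the members differed between diets in hepatocyte-like barcodes. They summed to 2.59% of the chow gate's nuclear-encoded UMIs and to 3.24% of those in the NASH diet gate, a log2 ratio of 0.32 (95% interval 0.319 to 0.329). Of the 89 members, 87 held at least 50 UMIs over both gates and were compared, and each of the 87 had a ratio above 0, with a median of 0.32 and a range of 0.01 to 0.80. Most genes moved the same way: 66.8% of all 10454 genes compared lay above 0, with a median of 0.14, and 72 of the 87 members lay above that median. Past 1.5-fold, 9 members (10.3%) were higher and 0 were lower, where 10.8% of all genes were higher and 5.15% lower. The members were thus shifted in 1 direction, but their share past 1.5-fold was close to that of all genes. Centred on the median of all genes, 15 of the 87 lay below 0 and 1 was past 1.5-fold, and with mitochondrial UMIs in the denominator 4 lay below 0 and 5 were past it. The share of all genes past 1.5-fold under these settings is not given here, so both counts lack a background. Cox6a2, with 2 and 0 UMIs, and Cox6b2, with 9 and 19, were too sparse to compare.

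**Figure D1:**
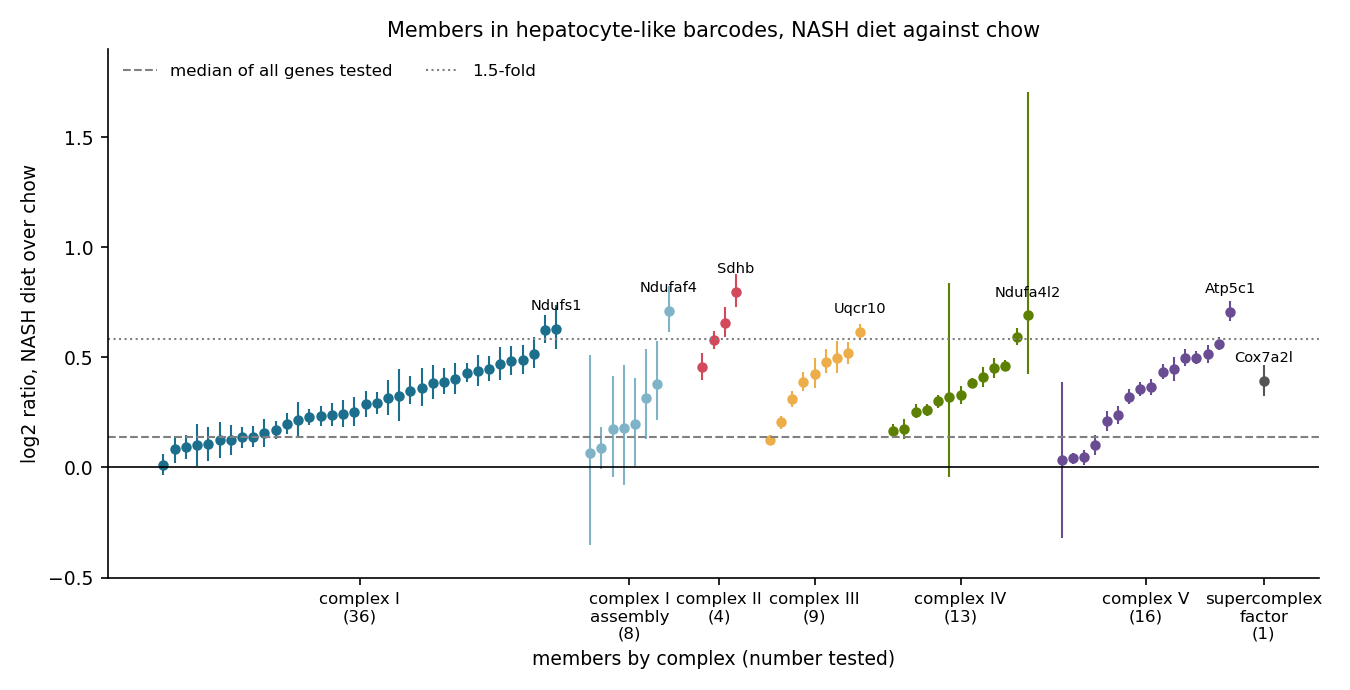
Log2 ratio of the NASH diet library over the chow library for each of the 87 members compared in hepatocyte-like barcodes, ordered within complexes. Points are ratios with a pseudocount of 1 CPM, and bars are 95% intervals of counting error without it. The dashed line is the median of all genes (0.14) and the dotted line 1.5-fold. All 87 points lie above 0, and the complex II members sit highest as a group.

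Complex II, succinate dehydrogenase, which is also an enzyme of the tricarboxylic acid (TCA) cycle, had the highest ratio of the 5 complexes over the whole hepatocyte-like gate. Its summed share was 0.0700% in chow and 0.106% in the NASH diet, a log2 ratio of 0.60, and the median of its 4 members was 0.62. In GRCm38 the 4 genes are unlinked: Sdha (chr13:74322254-74350280, minus strand), Sdhb (chr4:140961203-140979193, plus strand), Sdhc (chr1:171127165-171150603, minus strand) and Sdhd (chr9:50596357-50603812, minus strand). The iron-sulfur subunit Sdhb was at 95.7 and 167 CPM, a log2 ratio of 0.80 (0.73 to 0.88), the largest of any member compared with the pseudocount of 1 CPM. The membrane anchor Sdhd was at 123 and 194, a ratio of 0.66 (0.59 to 0.73). The flavoprotein Sdha, which holds the site of succinate oxidation, was at 317 and 473, and its ratio of 0.58 (0.54 to 0.62) fell just short of 1.5-fold. Sdhc, the other anchor, was at 165 and 227, a ratio of 0.46.

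Complex I had a median ratio of 0.27 over its 36 subunits, and 2 were past 1.5-fold. Ndufs1, the largest iron-sulfur subunit of the matrix arm, was at 57.4 and 89.4 CPM, a log2 ratio of 0.63 (0.54 to 0.74), and the accessory subunit Ndufa10 was at 138 and 213, a ratio of 0.62. At the other end Ndufv3 was at 343 and 346, a ratio of 0.01 (-0.03 to 0.06), and Ndufb7 had a ratio of 0.08. Core subunits therefore spread widely: beside Ndufs1, Ndufs3 had a ratio of 0.39, while Ndufs7 had 0.12, Ndufs8 0.10 and the NADH-oxidising Ndufv1 0.22. Among the 8 assembly factors, which build complex I but do not stay in it, the median was 0.19. Ndufaf4 was past 1.5-fold at 50.3 and 83.0 CPM, a ratio of 0.71 (0.62 to 0.83). Ndufaf1 had a ratio of 0.38 and Ndufaf8 of 0.09. Ndufaf5, at 4.05 and 4.29 CPM, was too sparse to place, with an interval of -0.35 to 0.51.

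In complex III the median was 0.43. Uqcr10, a small subunit, was at 479 and 735 CPM, a log2 ratio of 0.62 (0.58 to 0.65), and the Rieske iron-sulfur protein Uqcrfs1 had a ratio of 0.52 and cytochrome c1, Cyc1, of 0.48. Uqcrq, which was the most abundant member in chow at 1293 CPM, was at 1409 CPM in the NASH diet, a ratio of 0.12, and Uqcr11 had 0.20. In complex IV, cytochrome c oxidase, the median was 0.33: Cox5a was at 398 and 601, a ratio of 0.59 (0.56 to 0.63), against 0.17 for Cox4i1, with which it assembles early, and 0.18 for Cox5b. Ndufa4l2 was also past 1.5-fold (0.69) on 43 and 44 UMIs, at 1.29 and 2.69 CPM, where the pseudocount of 1 CPM lowers the ratio. Cox7a2l, the supercomplex factor, had 0.39. Complex V, the ATP synthase, had a median of 0.36. Its central stalk subunit Atp5c1 was at 247 and 404, a ratio of 0.71 (0.66 to 0.76), and the catalytic-head subunits Atp5a1 and Atp5b had ratios of 0.56 and 0.44, whereas the small stalk subunit Atp5e, at 1168 and 1202, had 0.04 and Atp5s 0.03. The 3 genes for the identical mature c-ring protein were unequal: Atp5g3 had a ratio of 0.50, Atp5g2 of 0.10 and Atp5g1 of 0.05.

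Neighbouring lists fixed alongside the members gave context. All 16 genes of the TCA list lay above 0, with a median of 0.48, among them Suclg1, a succinyl-CoA ligase subunit, at 156 and 317 CPM. Of 40 assembly factors and carriers 39 lay above 0, with a median of 0.35, and the ADP/ATP carrier Slc25a5 had a ratio of 0.82. Among 16 regulators 12 lay above 0: the receptors Esrra (8.96 and 27.0 CPM, ratio 1.49) and Ppara (ratio 1.34) and the coactivators Ppargc1b (0.91) and Ppargc1a (0.62) were higher, while Nrf1 had a ratio of 0.08 and Gabpb1 of -0.45. The 77 mitochondrial ribosomal protein genes had a median of 0.26. Cytosolic ribosomal protein genes went the other way, with 27 of 96 above 0 and a median of -0.09. Of the 13 protein genes of mitochondrial DNA 12 lay above 0, with a median of 0.34 on the same denominator; mt-Nd6 had a ratio of -0.11.

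The mitochondrial share of the barcodes differed between the gates of the 2 diets, so the comparison was repeated within strata of it. In barcodes of at least 10000 UMIs the members took 2.49% in chow and 3.29% in the NASH diet at a mitochondrial share of 10 to 20%, and 2.27% and 2.84% at 20 to 30%. Up to 10%, the values were 5.30% and 5.46%. Complex II summed to 673 and 909 CPM at 10 to 20% and to 701 and 1037 CPM at 20 to 30%, and complex IV to 6479.8 CPM and 9023 CPM at 10 to 20%, so that complex II did not lead in the stratum of 10 to 20%. In hepatocyte-like barcodes the median ratio over members was 0.08 up to 10%, 0.43 at 10 to 20% and 0.29 at 20 to 30%. Lowering the mitochondrial limit of the gate from 30% to 20% raised the median to 0.66 and the number past 1.5-fold to 54, against 17.2% of all genes. Barcodes of up to 10% then made up 30.8% of the NASH diet gate (64 of 208) and 8.37% of the chow gate (81 of 968). Averaged with equal weight over the 3 strata the median was 0.29, and 4 members were past 1.5-fold. The share of all genes under that averaging is not given here, so the count of 4 lacks a background.

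The second comparison asked how the members varied with the mitochondrial share and the depth of barcodes within each library. In barcodes of at least 10000 UMIs, members took 5.30% of nuclear-encoded UMIs at a mitochondrial share of up to 10% (105 chow barcodes) and 2.42% at 10 to 30% (1790 barcodes), a log2 ratio of 1.13. In the NASH diet library the shares were 5.46% (83 barcodes) and 2.95% (897 barcodes), a ratio of 0.89. This contrast was chosen after the values had been seen, and it takes all barcodes of that depth. Of the 105 chow barcodes, 81 were hepatocyte-like and 24 had at least 3 markers of another class. Of the 83 NASH diet barcodes, 64 were hepatocyte-like. Single barcodes formed separate clouds in the plot of member share against mitochondrial share: hepatocyte-like barcodes of up to 10% had a median member share of 6.16% in chow and 6.05% in the NASH diet, with lower quartiles of 5.43% and 5.66%, while those over 10% had medians of 2.32% and 2.81% and upper quartiles of 2.62% and 3.21%. Across all hepatocyte-like barcodes of a library Pearson's r between both shares was -0.71 in chow (1545 barcodes) and -0.78 in the NASH diet (898 barcodes), and over 10% mitochondrial share it was -0.25 and -0.40. These are barcodes of 1 library each, and the coefficients are descriptions.

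**Figure D2:**
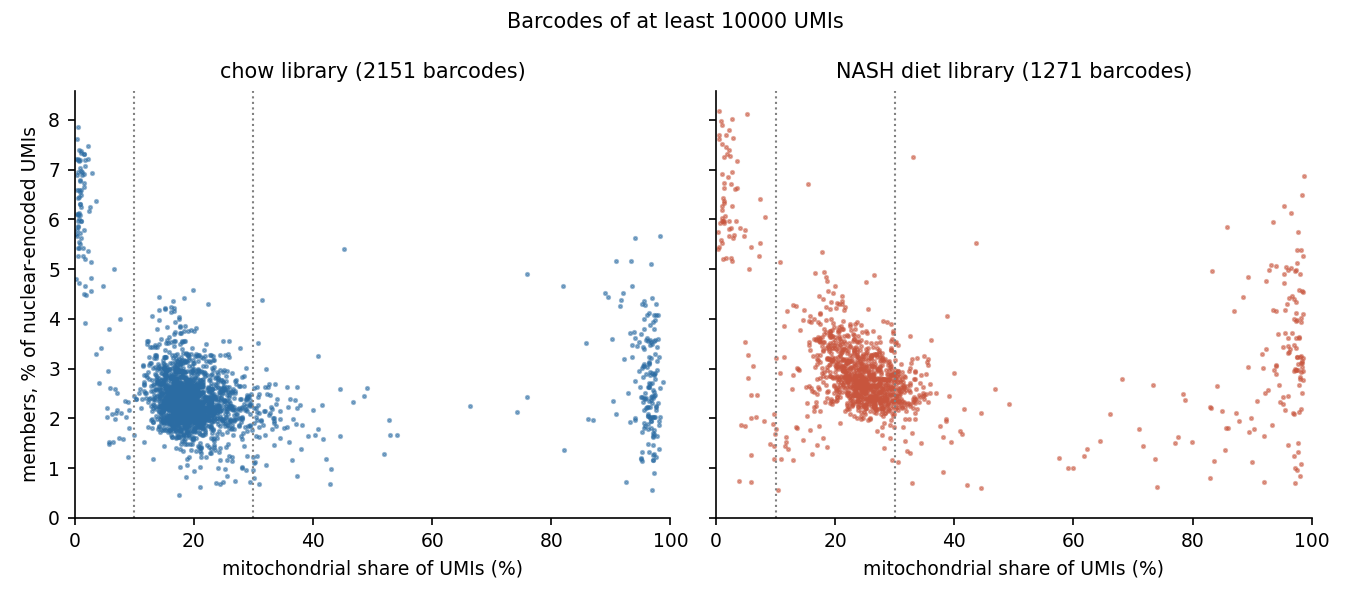
Member share of nuclear-encoded UMIs (vertical) against mitochondrial share of all UMIs (horizontal) for each barcode of at least 10000 UMIs in the chow and NASH diet libraries; dotted lines mark 10% and 30%. Most barcodes form a cloud between 10% and 30%, and a separate group near 0% mitochondrial share lies well above it in both libraries.

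Barcodes of low mitochondrial share also differed in other RNA. Cytosolic ribosomal protein genes made up 11.8% of their nuclear-encoded UMIs against 5.03% in chow, and 9.57% against 4.72% in the NASH diet. The 8 hepatocyte markers, which encode secreted proteins, were lower, at 2.32% against 8.68% and 3.39% against 9.65%. These values cover all barcodes of that depth, hepatocyte-like or not, and the part of cell composition was not tested. Such low marker shares go against the name hepatocyte-like for barcodes of up to 10%, which hold it by rule only. The long apolipoprotein B transcript Apob was at 197 against 2889 CPM in chow. Across hepatocyte-like barcodes the member share had an r of 0.82 with the cytosolic ribosomal share in chow and 0.69 in the NASH diet, both shares having the same denominator. Over 10% mitochondrial share this r was lower, at 0.52 and 0.33, and up to 10% it was 0.73 in both libraries. The part of these differences in the member values was not tested.

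Member by member the contrast repeated across libraries. Of the 86 members compared in chow 72 (83.7%) were higher past 1.5-fold, where 33.3% of all genes were, and 1 was lower (24.4% of all genes). In the NASH diet 69 of 87 (79.3%) were higher, against 30.9% of all genes, and 2 were lower, against 27.4%. Across the 86 members compared in both libraries the ratios had a Pearson's r of 0.90, a description over genes of 1 pathway, and 66 were higher past 1.5-fold in both. The share of all genes higher in both libraries was not computed, so this overlap has no background. Uqcrb, a subunit of complex III, was at 272 CPM at 10 to 30% and 1363 CPM up to 10% in chow, and at 330.4 and 1309.9 CPM in the NASH diet, log2 ratios of 2.32 and 1.98. Ndufaf3, a complex I assembly factor, had ratios of 1.93 and 2.33, and Atp5h, in the peripheral stalk of the ATP synthase, 2.03 and 2.01.

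A small set did not share this shift. Sdha was at 322 CPM at 10 to 30% and 172 up to 10% in chow, and at 483 and 274 in the NASH diet, ratios of -0.90 and -0.82. Its partner Sdhb was at 81.7 and 358 in chow and at 126 and 526 in the NASH diet, ratios of 2.12 and 2.06. The catalytic pair of succinate dehydrogenase thus lay at opposite ends of the members, with Sdha above Sdhb in the barcodes of 10 to 30% and below it in those of up to 10%. The anchors split as well, with ratios of -0.11 and -0.47 for Sdhc and 1.24 and 1.18 for Sdhd. Atp5g3 had ratios of -0.30 and -0.67, although Atp5g1, which encodes the same mature c-ring protein, had 1.15 and 1.26. Ratios near 0 were found for Atp5a1 (0.02 and 0.10), Cyc1 (0.03 and 0.23) and Ndufs1 (0.10 and -0.07), and Cox6a1 had 0.30 and -0.47.

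**Figure D3:**
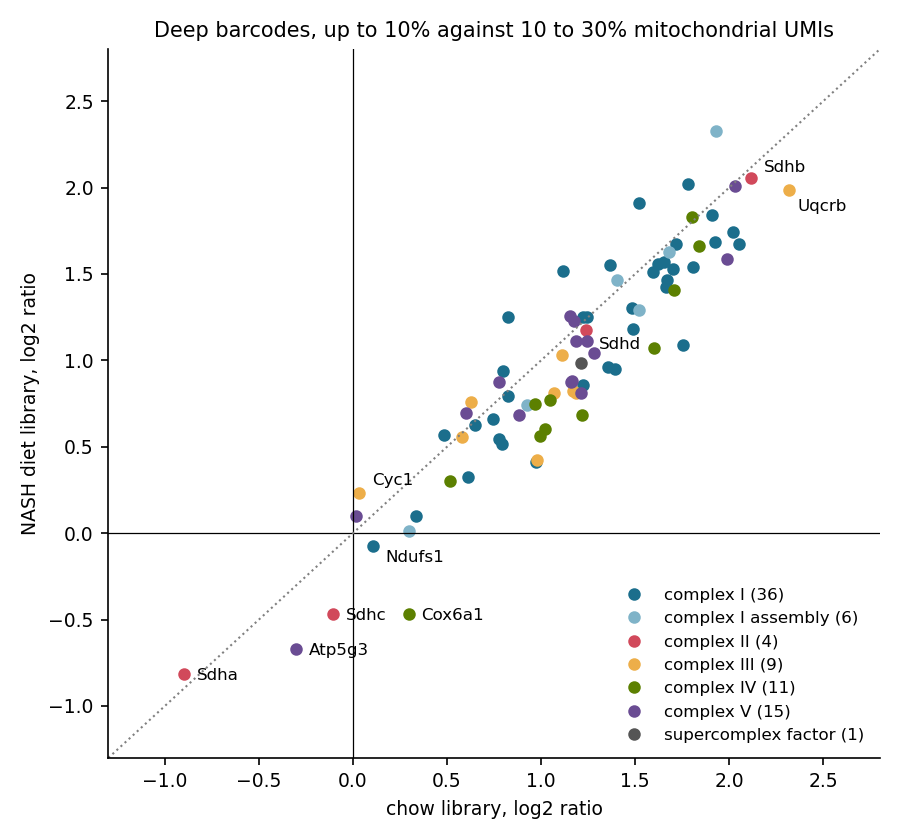
Log2 ratio of deep barcodes with up to 10% mitochondrial UMIs over those with 10 to 30%, chow library (horizontal) against NASH diet library (vertical), for the 82 members with at least 50 UMIs in each bin; colours give the complex and the dotted diagonal marks equal ratios. Sdhb and Uqcrb lie near 2 in both libraries, whereas Sdha, Sdhc and Atp5g3 lie below 0 in both.

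Short genes stood higher in this contrast. Excluding members and cytosolic ribosomal genes, the median ratio was 1.03 in chow and 0.85 in the NASH diet for genes of under 600 coding bases, and -0.02 and -0.07 for longer ones. Members of under 600 bases had medians of 1.22 and 0.96, and the 26 longer members 0.81 and 1.17. Long members thus lay above other long genes, and Spearman's rho between ratio and coding length over members was -0.19 in chow and 0.07 in the NASH diet. Within complex II the coding length was 846 bases for Sdhb, 507 for Sdhc and 1992 for Sdha. The part of coding length in the member values was not tested.

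Depth gave a related picture. Among barcodes of up to 30% mitochondrial UMIs, members took 4.78% in barcodes of under 2000 UMIs and 2.55% in those of at least 10000 in chow, a log2 ratio of 0.90, and 5.55% and 3.19% in the NASH diet, a ratio of 0.80. Past 1.5-fold, 69 of 87 members (79.3%) were higher in chow against 18.8% of all genes, and 62 of 87 (71.3%) in the NASH diet against 21.1%. In chow 1 member was lower and in the NASH diet 2, where 38.4% and 34.9% of all genes were. Other lists moved with depth as well: 64 and 70 of 77 mitochondrial ribosomal genes were higher past 1.5-fold, as were 72 of 96 and 65 of 94 cytosolic ribosomal genes, while the hepatocyte markers had summed ratios of -1.05 and -1.47. Genes of under 600 coding bases other than members and cytosolic ribosomal genes had medians of 0.65 and 0.60, and longer ones -0.47 and -0.34. The part of these differences in the member values was not tested. Complex I led, with medians of 1.09 and 1.12 over 36 subunits, and complex II trailed, with 0.17 and 0.49. The lowest ratios belonged to Sdha (-0.85 and -0.67), Atp5g3 (-0.24 and -0.28) and Cox6a1 (0.17 and -0.73), and the highest to Uqcrb (1.76 and 1.57), Atp5h (1.47 and 1.77) and Ndufa5 of complex I (1.57 and 1.60). Shallow and deep barcodes also differed in mitochondrial share, and with both limited to 10% the summed ratio was -0.12 in chow and 0.12 in the NASH diet. Within hepatocyte-like barcodes, all of at least 10000 UMIs, Pearson's r between member share and log10 UMIs was -0.04 in chow and 0.07 in the NASH diet. Over 10% mitochondrial share it was 0.35 and 0.24, so deeper barcodes had the higher member share there.

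**Figure D4:**
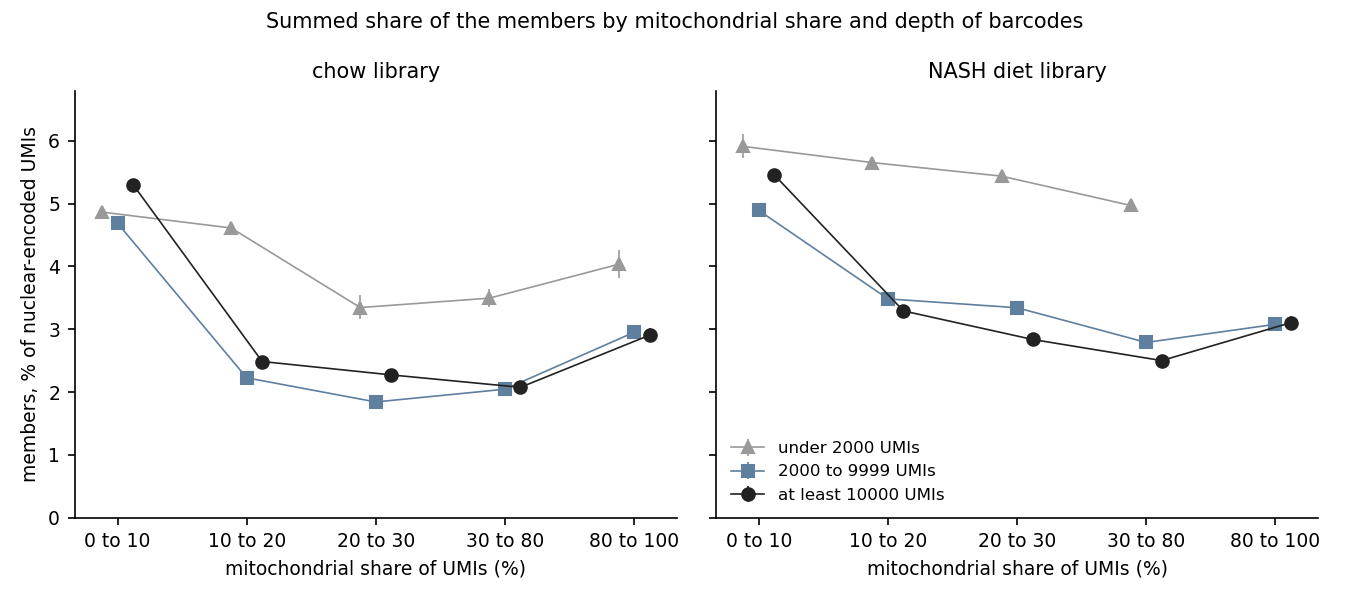
Summed member share of nuclear-encoded UMIs (vertical) by mitochondrial share of the barcodes (horizontal, 5 bins) and by depth (symbols), with 95% intervals of counting error, for bins with at least 20 barcodes in the chow (left) and NASH diet (right) libraries. The 3 depths lie closer together up to 10% mitochondrial share than at 10 to 20%, and at 10 to 30% barcodes of under 2000 UMIs lie above deeper ones in both libraries.

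Barcodes beyond the 30% limit behaved differently in the 2 libraries. At a mitochondrial share of 30 to 80% the member share was 2.12% against 2.67% up to 30% in chow (log2 ratio -0.33), with 18 of 87 members (20.7%) lower past 1.5-fold where 8.83% of all genes were, and 0 higher where 6.95% were. In the NASH diet it was 3.40% against 3.36% (0.01), and 0 members were past 1.5-fold in either direction, where 2.59% of all genes were higher and 5.94% lower. Depth moved with this: 1848 of the 2389 NASH diet barcodes in that range had under 2000 UMIs, against 124 of 463 in chow. With at least 10000 UMIs on both sides the ratios were -0.30 and -0.35, and with mitochondrial UMIs in the denominator -0.89 and -0.43. The lowest members over both libraries were Ndufaf8 (-0.72 and -0.10), Ndufb9 of complex I (-0.64 and -0.16) and Cox8a of complex IV (-0.57 and -0.22). The highest were Ndufs1 (0.31 and 0.20), Uqcrc1, a core protein of complex III (0.15 and 0.25), and Cyc1 (0.20 and 0.20). Over 80%, where nearly all RNA is mitochondrial, the member share of what remained was 2.99% in chow and 3.08% in the NASH diet, ratios of 0.17 and -0.13. Without the genes that resemble ribosomal RNA and Lars2 in the denominator these were 0.29 and 0.028, and with mitochondrial UMIs in it -3.96 and -3.77. Past 1.5-fold, 6 of 87 members were higher and 4 lower in chow, where 5.21% and 35.6% of all genes were, and 0 higher and 6 of 88 lower in the NASH diet, where 13.6% and 25.7% were. Sdha was again lowest over both libraries (-0.72 and -0.58), followed by Cox6a1 (-0.46 and -0.58) and Ndufa6 (0.03 and -0.78), while the complex I subunits Ndufb2 (0.61 and 0.43), Ndufb7 (0.48 and 0.34) and Ndufs3 (0.35 and 0.35) were highest.

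The third comparison set the other liver cell gates beside hepatocyte-like barcodes. Members took 1.9% in chow and 1.82% in the NASH diet of the endothelial-like gate (65 and 64 barcodes with at least 3 endothelial markers), log2 ratios of -0.45 and -0.83 against hepatocyte-like barcodes. In the Kupffer-like gate, the liver's resident macrophages (66 and 42 barcodes), the share was 2.31% in both libraries, ratios of -0.17 and -0.49. The Kupffer-like ratios depended on the setting: they were -0.017 and -0.39 with mitochondrial UMIs in the denominator, and the NASH diet value was -0.19 without a mitochondrial limit. In the gate of other leukocytes (19 and 35 barcodes) it was 2.57% and 2.43%. Single barcodes weighed heavily in its chow value: 1 barcode held 35.5% of the Cox4i1 UMIs there, and 1 held 53.0% of the Cox7a2 UMIs. None of these 3 gates thus had a higher summed share in the NASH diet, whereas hepatocyte-like barcodes did. Single complexes did not all follow the sum. Complex II took 0.0369% in chow and 0.0515% in the NASH diet of the endothelial-like gate, and 0.0569% and 0.0670% of the Kupffer-like gate. Among other leukocytes it took 0.0423% and 0.0385%. Whether the gates differ in the change between diets was not tested. In the endothelial-like gate 3 of 86 members were higher past 1.5-fold and 29 lower in chow, where 52.1% of all genes were higher and 22.8% lower. In the NASH diet 3 were higher and 58 lower, against 51.9% and 22.9%. In the Kupffer-like gate 6 of 86 were higher and 17 lower in chow, where 45.8% and 27.4% of all genes were, and 5 higher and 33 lower in the NASH diet, where 37.1% and 40.1% were. Median depths were 5309 and 7908 UMIs in the endothelial-like gate and 4540.0 and 1361 in the Kupffer-like gate, all below those of hepatocyte-like barcodes, and the part of depth was not tested.

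**Figure D5:**
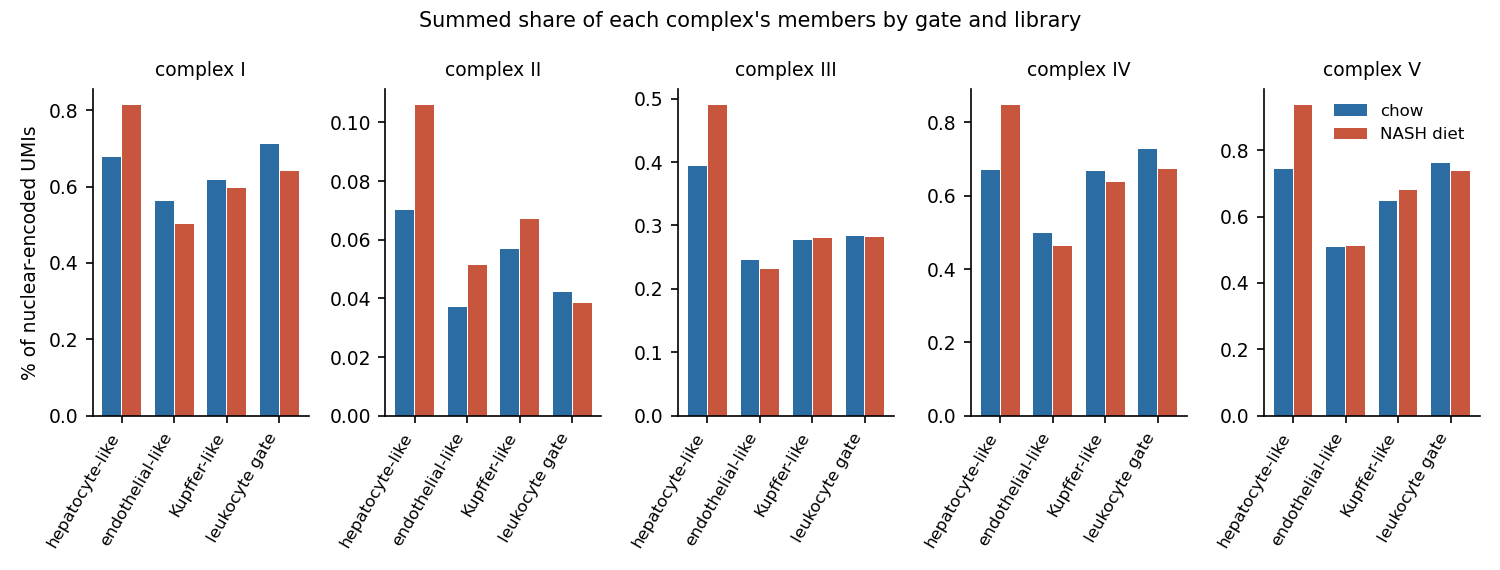
Summed share of nuclear-encoded UMIs (vertical, own scale from 0 in each panel) of the members of complexes I to V in the hepatocyte-like, endothelial-like and Kupffer-like gates and the gate of other leukocytes, for chow (blue) and NASH diet (red). Complexes II and III differ most between gates, with the tallest bars in hepatocyte-like barcodes.

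By complex, complexes II and III stood lowest in the endothelial-like gate, with summed log2 ratios of -0.92 and -0.69 in chow and -1.04 and -1.08 in the NASH diet. Uqcrq was at 466 and 451 CPM there against 1293 and 1409 in hepatocyte-like barcodes. Some members went against the trend. Cox7a2l, which helps to join complexes III and IV into supercomplexes, was higher in the endothelial-like gate, at 272 (107 UMIs) and 422 (233 UMIs) CPM against 123 and 162. It was also higher in the Kupffer-like gate, at 222 and 270. Cox5a stood out in the Kupffer-like gate, at 1139.7 CPM (431 UMIs) against 398 in chow and 987 (84 UMIs) against 601 in the NASH diet. Among the c-ring genes, Atp5g3 was the most abundant in hepatocyte-like barcodes of both libraries (645 and 912). Atp5g2 had the highest value among other leukocytes (627 and 656, on 83 and 143 UMIs). In chow its interval overlapped those of Atp5g1 and Atp5g3, and 1 barcode held 47.0% of its UMIs. In the Kupffer-like gate Atp5g2 was at 555 CPM in chow (210 UMIs) and 435 CPM in the NASH diet (37 UMIs). Its interval there overlapped that of Atp5g3 in both libraries, and that of Atp5g1 in the NASH diet.

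Tissue isoforms of complex IV were separated as well. The ubiquitous forms Cox4i1, Cox6a1, Cox6b1, Cox7a2 and Cox8a were found in 1515 or more of the 1545 chow hepatocyte-like barcodes. The lung form Cox4i2 had 0 UMIs in hepatocyte-like barcodes of both libraries, the muscle form Cox8b 0 and 2, and the heart and muscle form Cox7a1 113 and 73, or 3.39 and 4.47 CPM. Ndufa4, now counted with complex IV, was at 1094 and 1429 CPM, and its paralog Ndufa4l2, known as a gene induced in hypoxia, at 1.29 and 2.69. Cox6a2, the striated muscle form of subunit 6a, was concentrated in a few barcodes. It had 2 UMIs in chow and 0 in NASH diet hepatocyte-like barcodes, where a count of 0 allows up to 0.18 CPM (3 UMIs of the total), and 0 in both endothelial-like and Kupffer-like gates. In the gate of other leukocytes 1 chow barcode held 16 UMIs and 4 NASH diet barcodes held 16, 15, 8 and 8. These 5 barcodes all carried Siglech, a lectin gene known from plasmacytoid dendritic cells, with 13 UMIs in the chow barcode and 26, 12, 12 and 21 in the NASH diet barcodes in the same order. They also carried Bst2, Irf8, Ccr9 and Ly6d. Of all barcodes with at least 2 Siglech UMIs, 1 of 2 in chow and 4 of 5 in the NASH diet had Cox6a2. A further 6 NASH diet barcodes held Cox6a2, of which the highest counts were 9 and 7 and of which 1 held a single Siglech UMI. Siglech was set beside Cox6a2 after its values had been seen, and the cells are not named here.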

How the data were processed

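The authors deposited UMI counts, as whole numbers and not normalized, for every gene in every barcode of 2 libraries. Cell Ranger 3.1.0, Seurat and the build mm10 are named in the submitters' processing notes, and the file headers give software version 3.0.2. Per the labels the kit is 10x Genomics 3′ version 3, yet the barcode sequences resemble an older version, so the version was taken as unknown. A merged matrix, in which the chow library is thinned to 86.4% of its UMIs, served as an alternative. Columns left unmatched to a sample numbered 0.

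Barcodes were kept with at least 200 genes, 500 UMIs and at most 30% mitochondrial UMIs, except where mitochondrial share or depth was the comparison. Other liver classes were gated by at least 3 of their markers. UMIs were summed per gate and divided by the nuclear-encoded total. Log2 ratios use a pseudocount of 1 CPM (UMIs per 1000000 nuclear-encoded UMIs) for single genes and none for sums. Genes with at least 50 UMIs over both sides were compared, and 1.5-fold marked a difference. The 95% intervals are exact binomial and leave out the pseudocount. No test was run, since there is 1 library per diet. Doublets were kept: hepatocyte-like barcodes were required to lack 3 markers of any other class, and leaving out the highest Scrublet scores (433 and 277 barcodes) was an alternative. Near-identical members and pseudogene copies can share reads.

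Named members were the 2 highest and 2 lowest of each complex by diet ratio, the isoforms, the catalytic subunits, and the 3 highest and 3 lowest by mitochondrial share or depth. Members and lists were chosen with earlier results of these data known. Ratios were checked on simulated counts. Positions of genes came from GENCODE M21 and promoters from RefSeq, both GRCm38. Protein sequences were not used here. Python 3.11.15, NumPy 2.4.6, SciPy 1.17.1, pandas 2.3.3 and scanpy 1.11.5 were used. Values of some single genes are not reported here.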

Additional observations from a re-analysis of the deposited data

Results flagged for a closer look

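Members differed in direction between the libraries in 2 contrasts by mitochondrial share, and neither difference was tested, since each library is 1 sample. At 30 to 80% against up to 30% mitochondrial UMIs the summed log2 ratio was -0.33 in chow and 0.014 in the NASH diet. Over 80% against up to 30%, it was 0.17 in chow and -0.13 in the NASH diet. The difference in direction was absent under some alternatives: with at least 10000 UMIs the ratios at 30 to 80% were -0.30 and -0.35, and without genes like ribosomal RNA and Lars2 in the denominator those over 80% were 0.29 and 0.028.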

How the results depend on the processing

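With all UMIs as the denominator, mitochondrial ones included, the median diet ratio of members was 0.26 with 5 past 1.5-fold. Centred on the median of all genes it was 0.19 with 1 past 1.5-fold, and 15 members then lay below 0. A pseudocount of 20 left 3 past 1.5-fold. A mitochondrial limit of 20% gave 0.66 and 54, and strata of mitochondrial share gave 4. Apart from the limit of 20%, the share of all genes past 1.5-fold is not given for these alternatives. Their counts are therefore not read against a background. No alternative put a member lower past 1.5-fold. Of 424 values of 25 single members under the alternatives, 405 lay above 0 and 19 below.

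For the summed ratio at 30 to 80% mitochondrial UMIs, all UMIs as the denominator gave -0.89 in chow and -0.43 in the NASH diet, at least 10000 UMIs -0.30 and -0.35, and leaving out the other cell gates -0.38 and -0.013. At least 2000 UMIs gave -0.32 in the NASH diet, a denominator without genes like ribosomal RNA and Lars2 gave 0.035 there, and the merged matrix gave -0.36 in chow. Over 80%, the same denominators and limits gave -3.96 and -3.77 with all UMIs, 0.19 and -0.0399 with at least 10000 UMIs, 0.13 and -0.16 without other gates, and 0.29 and 0.028 without genes like ribosomal RNA and Lars2. At least 2000 UMIs gave -0.082 in the NASH diet.

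The depth ratio was 1.08 in chow with all UMIs, -0.12 (reversed) in chow and 0.12 in the NASH diet with a mitochondrial limit of 10%, 0.54 and 0.32 for barcodes of 2000 to under 10000 UMIs, and 0.88 in the merged matrix. For deep barcodes of low mitochondrial share, all UMIs gave 1.39 and 1.22, leaving out other gates 1.32 and 1.08, at least 20000 UMIs 1.21 and 0.86, and the merged matrix 1.10 in chow. For the endothelial-like gate, 2 markers gave -0.37 and -0.60, all UMIs -0.31 and -0.70, and no mitochondrial limit -0.76 in the NASH diet. For the Kupffer-like gate, 2 markers gave -0.22 and -0.56, 4 markers -0.62 in the NASH diet, all UMIs -0.017 and -0.39, and no mitochondrial limit -0.19 in the NASH diet.

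The cause of these shifts was not tested. The other 63 values of the main results stayed within a set band. For summed ratios this was the 95% interval of the value reported, and for counts 1.5 times. For the diet median, which has no interval of its own, it ran between the medians of the single members' interval limits. The comparison of deep barcodes by mitochondrial share, and the alternatives without the cholangiocyte class, over 10% mitochondrial UMIs, without shared barcodes and without genes like ribosomal RNA and Lars2, were chosen after seeing the data. No paired analysis was possible because each diet has 1 library. Depth limits the gates of other cells most, where several members had under 10 UMIs.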
